A study of Sus scrofa with 48 samples.

Results

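Genes of glucose transport and glucose metabolism were followed in the liver of 48 pigs. These 9 genes were SLC2A1, SLC2A2 and SLC2A4 among glucose carriers, PCK1, FBP1 and G6PC among enzymes of gluconeogenesis, and PKLR, GYS2 and PDK1 for glycolysis, glycogen synthesis and the control of pyruvate oxidation. A probe was taken when the array annotation gave it the symbol of 1 of these genes, or an accession that maps to it. This gave 28 probes out of 60305 on the array, for 8 of the 9 genes, and PKLR had 0 probes under this rule. SLC2A4 was selected on its measured values, because its signal was lower with the high-fat diet. Its diet values are thus given as a description and were not tested.

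The pigs were barrows of the Large White breed, from a line with low and a line with high residual feed intake (RFI), which is the part of feed intake that is not predicted from growth and backfat. Within each line, 12 pigs were fed a diet rich in fat and fiber (HF) and 12 a diet poor in both (LF), so fat and fiber cannot be told apart. All pigs were killed in the fed state, and each liver was hybridized to its own one-colour array. Each line is 1 selected population, so that effects of selection cannot be told apart from any other difference between these populations. Slides and scan days were balanced over the groups, with 2 arrays of each group on each of 6 slides. The share of probes well above background was 65.8% to 77.2% per array. Markers of hepatocytes, such as albumin, were bright on all arrays (mean log2 level of the list from 10.01 to 10.77).

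The liver takes up glucose after a meal and releases it between meals. SLC2A2 is the main carrier of hepatocytes and works in both directions, whereas SLC2A4 is the insulin-regulated carrier of muscle and adipose tissue, and SLC2A1 serves basal uptake in many cell types. PCK1, FBP1 and G6PC catalyze steps of the route from pyruvate to free glucose. GYS2 is the glycogen synthase of liver, and PDK1, a pyruvate dehydrogenase kinase, switches off the entry of pyruvate into the mitochondrial oxidation route.

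Each gene was read by probes of 60 bases. Sequences are printed from 5′ to 3′ with the start of the probe in the transcript given by the array annotation. That of SLC2A4 is shown because it was spotted under 2 probe names, which gives a measure of technical spread. Those of FBP1 and GYS2 are shown because these genes varied most closely together among pigs. The FBP1 sequence shown is not that of its probe of highest signal, which was used for the correlations between genes. After subtraction of group means, these FBP1 probes were correlated at r = 0.983.

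SLC2A4, start 433: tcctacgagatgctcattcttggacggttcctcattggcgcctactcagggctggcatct
FBP1, start 919: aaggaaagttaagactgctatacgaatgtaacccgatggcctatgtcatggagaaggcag
GYS2, start 738: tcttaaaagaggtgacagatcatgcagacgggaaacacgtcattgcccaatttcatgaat

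Levels are log2 signals relative to the median of the tested probes on the same array, so levels of different probes are not compared. A probe was tested when it was well above background on at least 12 arrays, and it was retained as differentially expressed at P under 0.01 with a fold-change (FC) over 1.1 in a limma model with line, diet and their interaction. Of the 28 probes, 26 were tested. Adjusted p-values are from limma with the Benjamini-Hochberg correction over all 45236 tested probes. Over all of these, 6.91% were retained for the line and 4.61% for the diet, or 3.93% and 0.455% at an adjusted p under 0.05. Because the liver was sampled as a whole, fewer cells of a type and less RNA per cell cannot be told apart.

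SLC2A4 was lower with the HF diet in both lines. With the probe of highest signal (start 2375), levels in low RFI pigs ranged from 0.55 to 2.35 (median 1.37) with the HF diet and from 1.56 to 3.18 (median 2.46) with the LF diet. In high RFI pigs they ranged from 0.70 to 3.21 (median 1.52) with the HF diet and from 1.74 to 3.69 (median 2.50) with the LF diet. The ranges overlapped, but 23 of 24 pigs fed the HF diet were below the median of pigs fed the LF diet. Means were 1.54 ± 0.57 and 2.51 ± 0.53 (SD, n = 24 each), a log2 difference of -0.97 ± 0.16 (SE). The difference was -1.02 in the low RFI line and -0.92 in the high RFI line. The HF diet gave the lower mean on all 6 slides, and the difference was -0.99 and -0.96 on the 2 scan days. These are parts of the same arrays on which the gene was chosen, so they do not replicate the difference.

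Differences were smaller with the other SLC2A4 probes, which were dim. The probe at start 1179 gave -2.27 ± 0.45 with the HF diet and -1.83 ± 0.46 with the LF diet (SD, n = 24 each), with 18 of 24 HF pigs below the LF median. The spots of the sequence at start 433 gave diet differences of -0.47 and -0.28, with 20 and 21 of 24 HF pigs below the LF median. After subtraction of group means, these spots, which hold the same 60 bases, were only moderately correlated across the 48 pigs (r = 0.41). The 4 probes were all lower with the HF diet, as the choice of this gene implies. They hold 3 different sequences, so they are not independent. The last SLC2A4 probe (start 963) was well above background on 0 arrays.

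**Figure D1:**
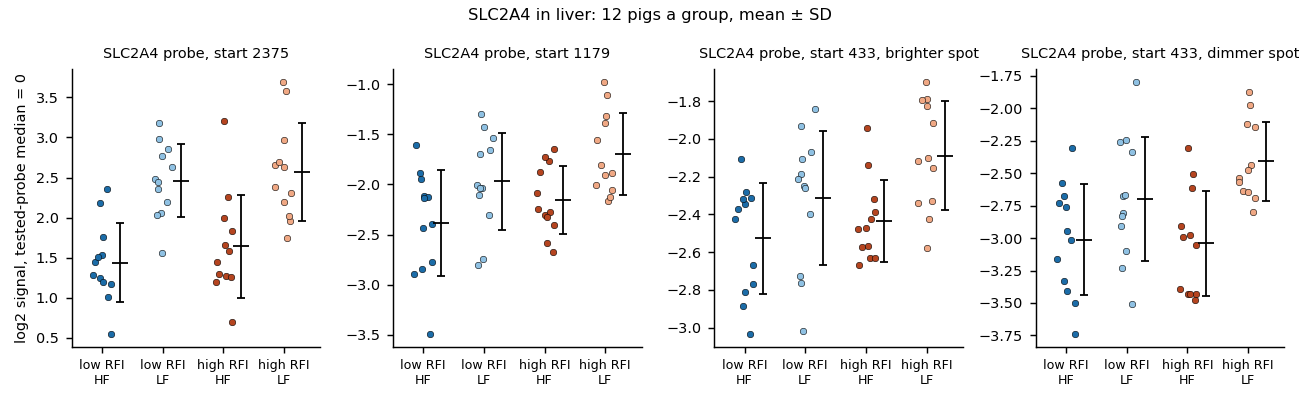
Level of SLC2A4 (log2 signal relative to the median of tested probes) for each of its 4 tested probes by line and diet, with 1 point per pig, 12 pigs a group, and mean ± SD beside the points. The 2 right panels are spots of 1 sequence, and in every panel the HF means lie below the LF means of the same line.

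The line effect on SLC2A4 was not used to choose it. It was -0.16 ± 0.16 (SE) with the probe at start 2375 (limma, P = 0.323, adjusted p = 0.745). The other probes gave -0.25 (P = 0.0502), -0.16 (P = 0.0632) and -0.13 (P = 0.27), so that 0 of 4 probes met the cut-offs.

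Because SLC2A4 is best known from muscle and adipose tissue, markers of these tissues were read in the same livers. Of 8 skeletal muscle markers, 7 were tested and 2 were lower with the HF diet, namely MYH1 (log2 FC of -0.23, limma adjusted p = 0.102) and ACTA1 (-0.29, adjusted p = 0.150), beside 4.2% of all genes retained for diet. The median log2 FC of the muscle list was -0.15, and 6 of its 7 tested genes had a negative value, among them MYLPF (-0.23, P = 0.0156). The mean level of the muscle list ranged from -0.79 to 0.05 (median -0.41) with the HF diet and from -0.70 to 0.14 (median -0.24) with the LF diet. Of 7 adipocyte markers, 6 were tested, 0 met the cut-offs, and the list ranged from -0.28 to 0.48 and from -0.20 to 0.98, respectively. The median log2 FC of the adipocyte list was -0.11, with values from -0.30 for CIDEC to 0.15 for PLIN1 (limma, P = 0.0225 and 0.349). Across pigs, after subtraction of group means, the correlation of the probe at start 2375 was r = 0.08 with the muscle list and r = 0.13 with the adipocyte list. Over the 8 correlations of SLC2A4 probes with both lists, r ranged from 0.03 to 0.37, and the smallest adjusted p was 0.102 (permutation test). The part of muscle or adipose RNA in the SLC2A4 difference was not tested.

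SLC2A1 was under-expressed in the low RFI line. With its only tested probe (start 1495), levels of low RFI pigs ranged from -0.70 to 0.38 (median -0.35) with the HF diet and from -0.95 to 0.02 (median -0.40) with the LF diet. Those of high RFI pigs ranged from -0.31 to 0.29 (median -0.08) and from -0.54 to 0.15 (median -0.33), respectively. Lines overlapped, with 18 of 24 low RFI pigs below the high RFI median. Means were -0.37 ± 0.31 and -0.16 ± 0.23 (SD, n = 24 each), and the log2 FC was -0.21 ± 0.08 (SE). This met the cut-offs (limma, P = 0.00871) but not the correction (adjusted p = 0.129), and it was lost with another background correction. The low RFI mean was the lower on all 6 slides, and the difference was -0.29 (P = 0.0070) and -0.14 (P = 0.283) on the 2 scan days. For diet, the log2 FC of SLC2A1 was 0.17 ± 0.08 (limma, P = 0.0362, adjusted p = 0.309), which did not meet the cut-offs.

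SLC2A2 was close between lines and diets. With its probe of highest signal, the log2 difference between lines was 0.06 (95% interval from -0.04 to 0.17, limma adjusted p = 0.689). Between diets it was -0.02 (interval from -0.12 to 0.09, adjusted p = 0.912). This diet difference had opposite signs on the 2 scan days, -0.14 and 0.10 (limma, P = 0.0900 and 0.106). With the probe at start 1191 it was -0.13 and 0.09 (P = 0.0406 and 0.226). The probe at start 1191 gave a line difference of 0.10 (P = 0.0329, adjusted p = 0.275), with 22 of 24 low RFI pigs above the high RFI median.

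Among enzymes of gluconeogenesis, 0 of 12 probes met the cut-offs for line or diet. G6PC, which releases free glucose, came nearest. With its probe of highest signal (start 1481), levels of low RFI pigs ranged from 3.5 to 5.15 (median 4.37) with the HF diet and from 2.30 to 5.0 (median 4.32) with the LF diet. Those of high RFI pigs ranged from 2.78 to 5.26 (median 4.25) and from 2.34 to 5.35 (median 3.57), so the lowest median was that of high RFI pigs fed the LF diet. The diet difference, HF minus LF, was 0.45 ± 0.20 (SE, limma, P = 0.0257, adjusted p = 0.274), with a higher HF mean on all 6 slides. A second G6PC probe gave 0.44 ± 0.17 (P = 0.011, adjusted p = 0.209) and met the cut-offs under 4 of 12 other settings, and the third, at start 631, gave 0.28 (P = 0.148). The line difference was 0.35 ± 0.20 (P = 0.0857, adjusted p = 0.445). For the second probe the diet difference was 0.68 within the high RFI line (P = 0.00573, adjusted p = 0.587) and 0.20 within the low RFI line (P = 0.399), and these did not differ by the interaction test (P = 0.155).

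PCK1, which makes phosphoenolpyruvate from oxaloacetate, varied widely in every group. With its probe of highest signal, levels ranged from 5.05 to 7.97 (median 6.46) in low RFI pigs fed the HF diet and from 4.32 to 7.44 (median 6.23) in those fed the LF diet. In high RFI pigs they ranged from 4.73 to 8.49 (median 6.74) and from 4.74 to 8.4 (median 6.52). The groups overlapped almost entirely. The diet difference was 0.49 ± 0.28 (SE, limma adjusted p = 0.427, 95% interval from -0.06 to 1.04), and the line difference was -0.38 ± 0.28 (adjusted p = 0.602, interval from -0.93 to 0.17). The 6 PCK1 probes gave nearly the same values, with r from 0.982 to 0.999 between their deviations from group means, and several of them overlap.

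FBP1, which removes a phosphate from fructose 1,6-bisphosphate, had HF and LF means of 8.57 ± 0.40 and 8.77 ± 0.44 (SD, n = 24 each). Its diet difference was -0.20 ± 0.12 (SE, limma adjusted p = 0.437), and its line difference was 0.13 ± 0.12 (adjusted p = 0.718). The other 2 probes gave diet differences of -0.22 and -0.17. For GYS2, the probe at start 738 gave 1.76 ± 0.43 and 1.86 ± 0.49 for the HF and LF diets. The line difference of GYS2 was -0.05 (95% interval from -0.31 to 0.21, adjusted p = 0.933) and its diet difference was -0.10 (interval from -0.36 to 0.16, adjusted p = 0.784). On the 2 scan days, this line difference was 0.11 and -0.21. The other GYS2 probes gave line differences of 0.15, 0.09 and 0.03, and none was retained. Effects of such size cannot be told from 0 with this spread among pigs.

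PDK1 was over-expressed in the low RFI line with 1 of 3 probes. At start 1404, levels of low RFI pigs ranged from 1.09 to 1.98 (median 1.59) with the HF diet and from 1.29 to 1.88 (median 1.66) with the LF diet. Those of high RFI pigs ranged from 0.68 to 1.41 (median 1.29) and from 0.79 to 2.07 (median 1.36). Lines overlapped, with a log2 FC of 0.31 ± 0.08 (SE, limma, P = 0.000421, adjusted p = 0.0174). The line difference was 0.36 within the HF diet and 0.26 within the LF diet, and these did not differ by the interaction test (P = 0.567). An unnamed probe with the same 60 bases, outside the rule, gave a line difference of 0.24 ± 0.08 (SE, limma, P = 0.00578, adjusted p = 0.101). The PDK1 probes at start 906 and without a given start gave 0.22 (adjusted p = 0.328) and 0.39 (adjusted p = 0.194). The 3 probes point the same way, but the dimmest does not track the other 2. Across pigs, after subtraction of group means, r was 0.82 between those 2 probes and -0.29 and -0.35 for the pairs with the dimmest probe. Of 6 markers of pericentral hepatocytes, 4 were tested and 2 were lower in low RFI pigs, CYP1A2 (log2 FC of -0.78) and GLUL (-0.35), with a list median of -0.42, beside 6.8% of all genes retained for line. In other marker lists, 1 gene was higher among 7 hepatocyte and 1 among 5 smooth muscle and stellate markers, and 1 was lower among 4 bile duct and 1 among 7 skeletal muscle markers. The part of these cell types in the line differences was not tested.

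**Figure D2:**
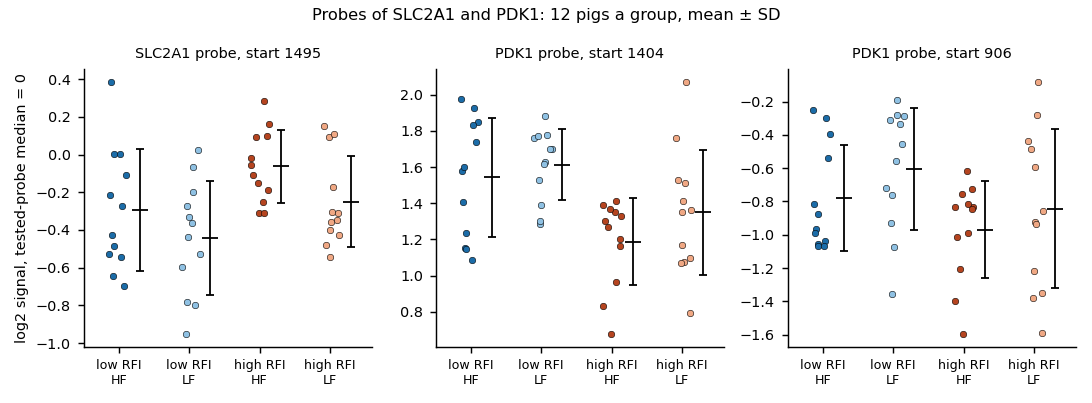
Levels (log2 signal relative to the median of tested probes) of SLC2A1 (start 1495) and of PDK1 (start 1404 and start 906) by line and diet, with 1 point per pig, 12 pigs a group, and mean ± SD beside the points. SLC2A1 means were lower and PDK1 means higher in low RFI pigs, with overlapping points in all panels.

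In all, 2 of 8 genes had a probe retained for line, through 2 of 26 probes, beside 6.91% of all probes. For diet, no probe of the other genes was retained, and SLC2A4 was left out of this count since it was chosen for its diet difference. For the interaction, 0 of 26 probes were retained in limma, beside 0.376% of all probes. The smallest interaction P was 0.116, for SLC2A2 at start 1191.

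**Figure D3:**
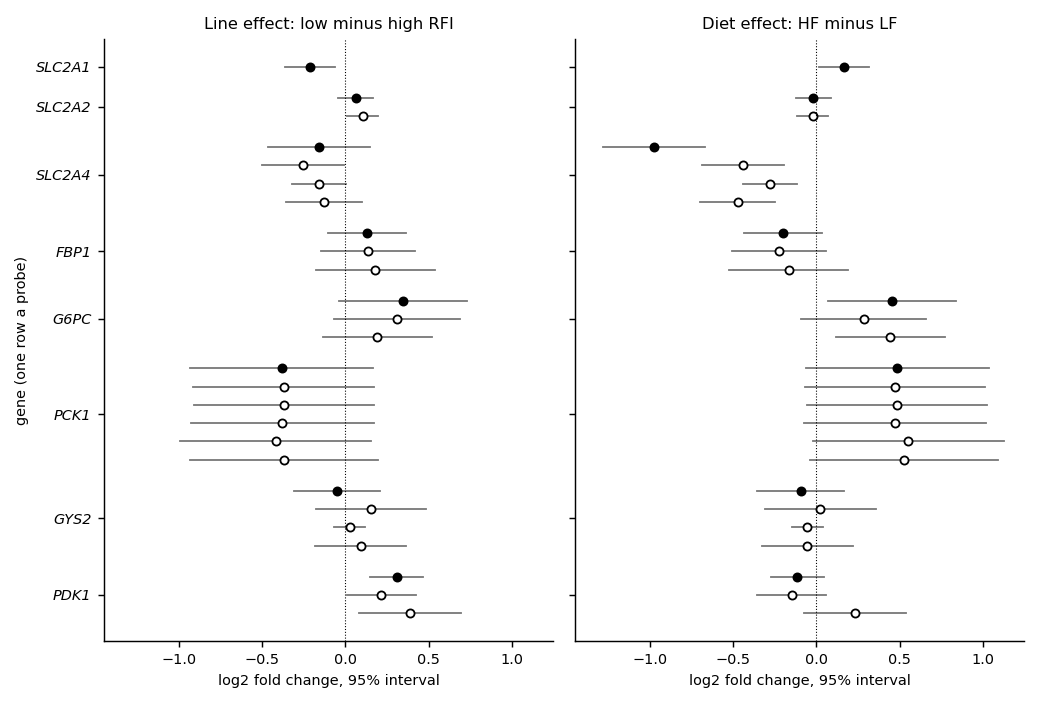
Line effect (low minus high RFI, left) and diet effect (HF minus LF, right) as log2 FC with 95% intervals for the 26 tested probes, with 1 row a probe. Black points are the probe of highest signal of each gene and white points its other probes. The SLC2A4 rows stand left of 0 for diet, and the PCK1 rows have the widest intervals.

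The spread among pigs of a group differed greatly between these genes. The SD within groups was 1.0 for PCK1, wider than that of 98.8% of the 10504 genes tested, and its level spanned 18-fold over all pigs. It was 0.70 for G6PC, 0.56 for SLC2A4, 0.47 for GYS2 and 0.42 for FBP1, against a median of 0.25 over all genes. It was 0.28 for PDK1, 0.27 for SLC2A1 and only 0.18 for SLC2A2, whose level spanned 1.77-fold.

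Levels of several genes varied together across the 48 pigs after subtraction of group means. Correlations were computed for 28 pairs of genes, each by its probe of highest signal, with permutation tests and the Benjamini-Hochberg correction over the pairs, and 6 pairs passed an adjusted p of 0.05 with Pearson's r. With Spearman's rho a further pair passed, FBP1 and PDK1 (r = 0.38, adjusted p = 0.0568, and rho = 0.39, adjusted p = 0.0431, with r = 0.53 without the 2 farthest pigs, and 0.56 and 0.23 within scan days). The closest were FBP1 and GYS2 (Pearson r = 0.74, Spearman rho = 0.72, adjusted p = 0.00028 for both), at the smallest p that the permutations can give. Without the 2 pigs farthest from the median of FBP1, r was 0.75, and it was 0.80 and 0.70 within scan days. PCK1 was correlated with G6PC (r = 0.46, adjusted p = 0.0125, and rho = 0.49, adjusted p = 0.00747, and r = 0.42 without the 2 farthest pigs, and 0.32 and 0.57 within scan days). PCK1 was also correlated with GYS2 (r = 0.48, adjusted p = 0.0111, and rho = 0.49, adjusted p = 0.00747, and r = 0.50 without the 2 farthest pigs, and 0.62 and 0.36 within scan days). With the mean over probes, FBP1 and GYS2, PCK1 and G6PC, and PCK1 and GYS2 passed again (r = 0.75, 0.52 and 0.45). FBP1 and G6PC then passed as well, with r = 0.43, against 0.08 with the probes of highest signal. FBP1, GYS2, PCK1 and G6PC had no probe retained for line or diet.

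SLC2A4 ran opposite to G6PC (r = -0.45, adjusted p = 0.0125, and rho = -0.41, adjusted p = 0.0399, and r = -0.45 without the 2 farthest pigs, and -0.49 and -0.46 within scan days). With the mean over probes this relation was -0.26 (adjusted p = 0.275). SLC2A4 also ran opposite to PDK1 (r = -0.49, adjusted p = 0.00924, and rho = -0.38, adjusted p = 0.0418; -0.50 and -0.49 within scan days). The last relation rests on few pigs and on the probe: without the 2 farthest pigs r was -0.36 (adjusted p = 0.0855), and with the mean over probes it was -0.18 (adjusted p = 0.522). GYS2 and PDK1 had r = 0.42 (adjusted p = 0.0238, and rho = 0.39, adjusted p = 0.0399), which fell to 0.30 (adjusted p = 0.151) without the 2 farthest pigs and to 0.35 (adjusted p = 0.106) with the mean over probes, with 0.59 and 0.23 within scan days. The share of probes well above background on an array was not clearly related to any of the 8 genes (8 permutation tests, smallest adjusted p = 0.696).

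**Figure D4:**
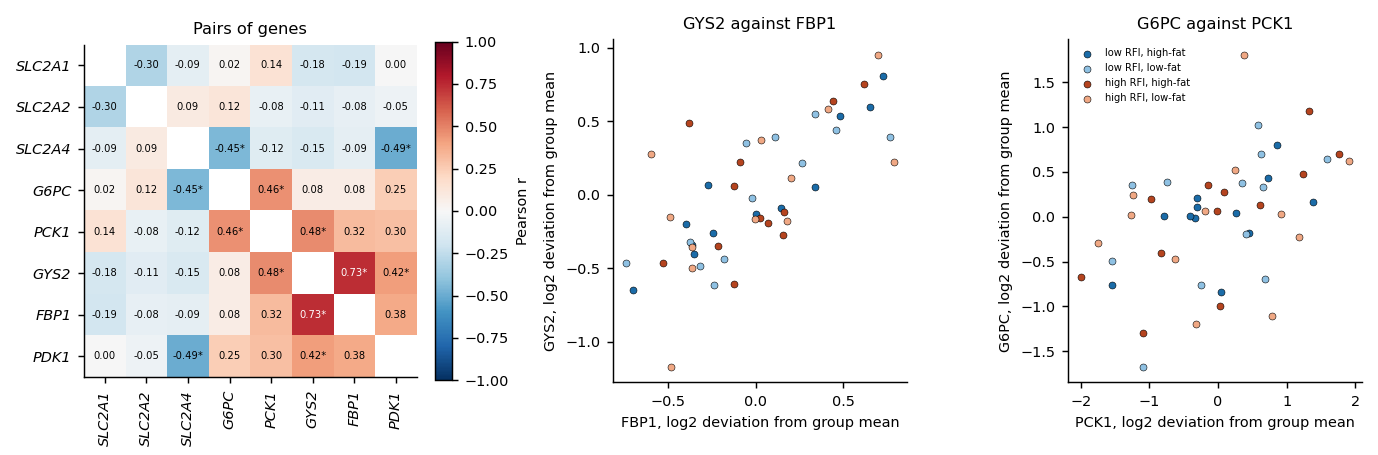
Left, Pearson r between the 8 genes across 48 pigs after subtraction of group means (colour and number; * marks adjusted p under 0.05) and, middle and right, the deviations from group means (log2) of GYS2 against FBP1 and of G6PC against PCK1, 1 point per pig. FBP1 and GYS2 lie closest to a line.

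Genes with the most similar pattern were sought among the 10504 genes, by r over the same 48 deviations, as a description. For FBP1 they were ACADVL (0.92), PLIN5 (0.88) and SEC23A (0.88), and for GYS2 TMEM38A (0.84), RABGAP1L (0.83) and FAM161A (0.80). For G6PC they were HBP1 (0.76), COG5 (0.76) and FBXO31 (0.71), and for PCK1 MARVELD3 (0.72), SEPSECS (0.70) and RBMS1 (0.64). Those of PDK1 were RPL5 (0.77), MTURN (0.76) and DESI2 (0.75). The carriers had looser neighbours, with at most 0.57 for SLC2A4 (CLDN7), 0.58 for SLC2A2 (SSX2IP) and 0.53 for SLC2A1 (PLPP2).

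The other genes of glucose metabolism were read from lists of 129 genes, 107 of them tested, each by its probe of highest signal. With the HF diet, 0 of 107 rose and 7 fell, with a median log2 FC of -0.04, beside 4.2% of all genes, of which 213 rose and 228 fell with a median of -0.02. GAPDH of glycolysis ranged from 9.20 to 9.84 (median 9.60) with the HF diet and from 9.49 to 10.13 (median 9.78) with the LF diet, and fell by 0.19 (limma adjusted p = 0.0806, 2 of 2 probes). GCKR, a regulatory protein of hepatic glycolysis, fell by 0.22 (adjusted p = 0.137). In the glycogen list, PPP1R3C, which brings a phosphatase to glycogen, fell by 0.41 (adjusted p = 0.0623, 3 of 3 probes), and GSK3B, a kinase that inhibits glycogen synthase, by 0.17 (adjusted p = 0.0474, 1 of 3 probes). PDK4, another pyruvate dehydrogenase kinase, fell by 0.34 over both lines (adjusted p = 0.187, 4 of 11 probes). Its means with the HF and LF diets were 5.67 ± 0.61 and 6.31 ± 0.38 in low RFI pigs, a difference of -0.65, and 6.16 ± 0.41 and 6.20 ± 0.31 in high RFI pigs, a difference of -0.04 (SD, n = 12 each). The interaction did not meet the cut-offs (limma, P = 0.0191, adjusted p = 1.0). The diet call of PDK4 was lost with quantile normalization, normexp, median signals, deposited values and the model without interaction, that of GAPDH with quantile normalization, and that of GSK3B with normexp. Of the 7 genes that fell, only GSK3B passed the correction.

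**Figure D5:**
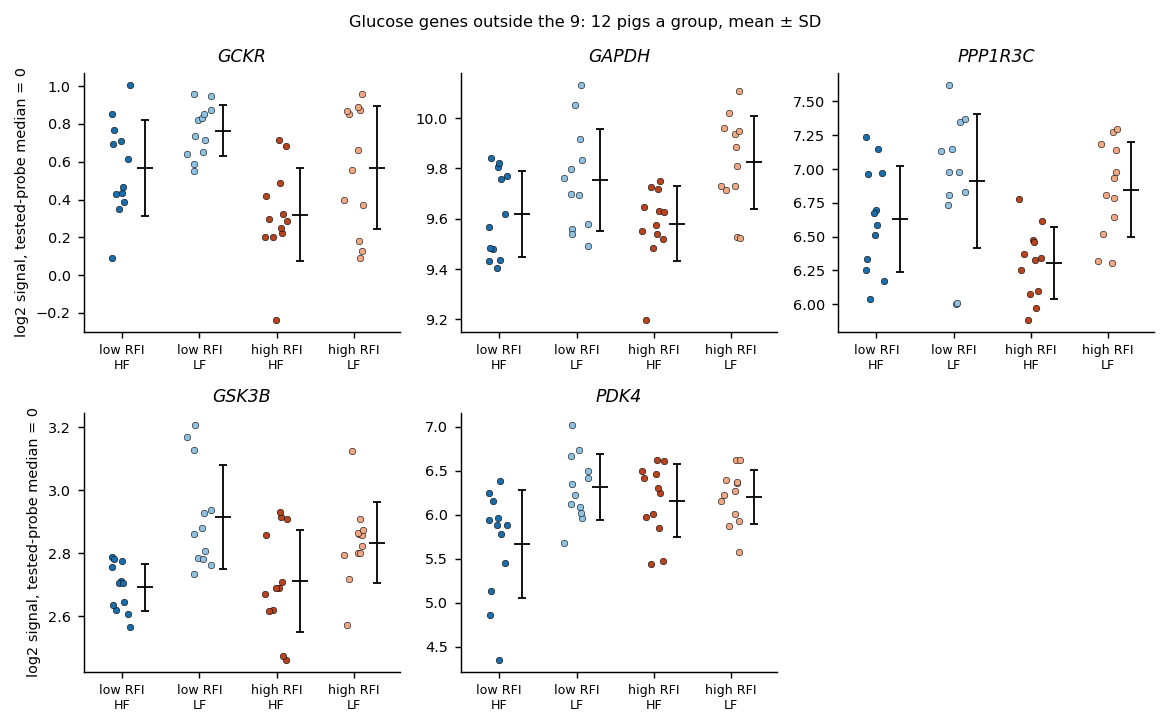
Levels (log2 signal relative to the median of tested probes) of GCKR, GAPDH, PPP1R3C, GSK3B and PDK4 by line and diet, with 1 point per pig, 12 pigs a group, and mean ± SD beside the points. The diet difference of PPP1R3C, a log2 FC of -0.41, was the largest of these 5, and points overlapped in both lines.

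For the line, 4 of 107 rose and 2 fell in low RFI pigs, beside 6.8% of all genes, of which 358 rose and 356 fell. GBE1, the glycogen branching enzyme, ranged from 1.62 to 3.79 (median 2.62) in low RFI pigs and from 1.68 to 3.07 (median 2.05) in high RFI pigs, with a log2 FC of 0.54 ± 0.12 (SE, limma adjusted p = 0.00349), in 1 of 2 probes. MLX, the partner of the glucose-sensing factor MLXIPL, fell by 0.48 (adjusted p = 0.00267, 1 of 2 probes), with levels from 0.29 to 1.49 in low and from 0.40 to 2.09 in high RFI pigs. MLXIPL itself was not retained, with medians of 2.50 in low and 2.53 in high RFI pigs. Its line difference was 0.07 and -0.17 on the 2 scan days. ENO3, an enolase, rose by 0.38 (adjusted p = 0.0171, 1 of 4 probes). Without passing the correction, GCKR rose by 0.22 (adjusted p = 0.0754) and SLC2A6, another carrier, fell by 0.32 (adjusted p = 0.121). The SLC2A6 call was lost with slide as a block, normexp, median signals and deposited values, and its difference was -0.16 and -0.48 on the 2 scan days. That of GBE1 was 0.73 and 0.34. GCKR was thus retained for both factors, higher in low RFI pigs and lower with the HF diet. Among listed genes that were not retained, the liver glycogen phosphorylase PYGL had log2 FC of 0.04 for line and 0.01 for diet, and the pyruvate carboxylase PC had -0.02 and 0.03.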

How the data were processed

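Liver RNA of 48 pigs was measured with 1 one-colour Agilent array each. The authors deposited scanner output with intensity values per spot, from which background had been subtracted, and a table of log2 values, which tested as the log2 median signal centred per array (37379 probes). The submitters' processing notes name R 2.10.0. The genome build of the array design is not given in the sources used here.

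Background-subtracted intensities were taken to log2, 483 spots flagged as outliers were set to missing, and arrays were centred on the median of tested probes, those well above background on at least 12 arrays. 0 spots were saturated. The number of arrays limits the precision. Probes were fitted with limma 3.58.1 (R 4.3.3) with line, diet and interaction, as in the study's ANOVA, with moderated variances (prior degrees of freedom 2.80). Probes were retained at P under 0.01 and FC over 1.1. The fit was also run on simulated data with independent noise and changes by line only. Slide effects, diet effects and correlation between probes were not simulated, so nothing about these genes is read from it. Gene symbols were those of the array or of a RefSeq table for Sscrofa11.1, and 23962 probes had one.

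A gene of a list was read by its probe of highest mean signal. Named genes were the members and, among pathway genes, those retained, with key enzymes that were not. The members and lists were chosen with earlier results of these data known. Correlations used permutation tests with 100000 resamples. Alternatives were centring on the 75th percentile, quantile normalization, normexp (offset 50), median signals, deposited values, other filters, ANOVA, no interaction, slide or scan day as a term, and other probes per gene. A planned search of promoters for motifs was not run. Other tissues of these pigs were not analysed here. Some of the retained pathway genes and some probe sequences are not reported here, although counts include those genes.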

Additional observations from a re-analysis of the deposited data

Results flagged for a closer look

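IGFBP1, an insulin-regulated binding protein of growth factors in the list of hormone signalling, met the cut-offs for the interaction of line and diet. It did not pass the correction. Its level ranged from 3.93 to 4.59 (median 4.38) in low RFI pigs fed the HF diet and from 4.14 to 5.19 (median 4.40) in those fed the LF diet. It ranged from 4.33 to 5.83 (median 4.82) and from 4.07 to 5.20 (median 4.32) in high RFI pigs. The line effect was -0.47 with the HF diet and 0.16 with the LF diet, and their difference was -0.63 (limma, P = 0.00184), with an adjusted p of 1.0 over all probes. The other 2 probes gave -2.91 (P = 0.00789) and -0.52 (P = 0.00623). It was the only one of 107 pathway genes retained for the interaction. Among all 10504 genes, 13 were retained with a positive and 23 with a negative interaction. Over all probes, 0 passed the correction for the interaction, so nothing is read from this count.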

How the results depend on the processing

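Of the counts of retained genes and probes, 65 of 72 stayed within 1.5 times under the alternatives. For line, 1 gene in place of 2 was retained with normexp, with median signals and with the deposited values, since SLC2A1 was lost (-0.13, -0.16 and -0.16; P = 0.0171, 0.0157 and 0.0168), whereas PDK1 was retained throughout (adjusted p from 0.0086 to 0.0249). For diet, SLC2A4 aside, no gene was retained in the main fit. G6PC was retained with 75th percentile centring, normexp, slide as a block and scan day as a term. The diet difference of SLC2A4 ranged from -0.98 to -0.54, the latter with the mean over probes. Of 112 line differences of the genes, 108 kept direction and call. Of 112 diet differences, 110 counted as unchanged. For SLC2A4, which was not tested for diet, this meant the same direction and a change smaller than the SD within groups. For the other genes it meant the same direction and call. Among these alternatives, which leave out each scan day taken alone, signs turned for values near 0 only. The line difference of GYS2 was 0.0546 with the mean over probes, and the diet difference of SLC2A2 was 0.0208 with normexp and 0.0016 with median signals. The number of correlated pairs was 3 and 1 on scan days 1 and 2 alone, with 24 pigs each, in place of 6. The count of probes at an adjusted p under 0.05 for diet was 27 without a filter, 308 with normexp and 316 with slide as a block, in place of 206. Choosing the probe above background on most arrays gave the same probes. The cause of these shifts was not tested. No paired analysis was possible because the labels give no replicate numbers that groups share. Dim probes, such as those of SLC2A4 other than at start 2375, are limited by signal over background.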

Other observations

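For PKLR, the pyruvate kinase of liver, 2 probes were found by the word in their description only, outside the rule, and were well above background on all 48 arrays. Their line differences were 0.16 (limma, P = 0.368) and 0.09 (P = 0.299), and their diet differences were -0.28 (P = 0.123) and -0.11 (P = 0.205). These values were looked up after the rule had found no probe for PKLR.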
